A study of Homo sapiens with 12 samples.

Results

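The enzymes that oxidise, reduce and conjugate drugs, steroids and aldehydes were followed in H460 cells, an established human line of large cell lung carcinoma, after 24 h with 1 of 5 drugs. Genes were taken by symbol from the array annotation: cytochrome P450 genes (CYP followed by a digit, without CYP51A1), UDP-glucuronosyltransferases (UGT), alcohol dehydrogenases (ADH followed by a digit), aldehyde dehydrogenases (ALDH), glutathione S-transferases (GST followed by a letter), sulfotransferases (SULT), aldo-keto reductases (AKR) and NAD(P)H quinone dehydrogenases (NQO). This gave 48 of the 5499 genes on the array: 22 CYP, 7 ALDH, 5 UGT, 4 ADH, 4 GST, 4 SULT and 2 AKR genes, and 0 NQO genes. One group had 5 µM cisplatin, a second 5 nM paclitaxel, and others 1 µM 5-fluorouracil (5-FU), 0.2 µM cytarabine or 0.2 µM cytochalasin D. Untreated H460 RNA lay on every array as the other channel. Each drug had 2 replicates. 5-FU was hybridised on 4 arrays, each replicate once with the treated RNA in either channel, and the other 4 drugs on 2 arrays each with the treated RNA in channel 1, which makes 12 arrays.

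5-FU and cytarabine are nucleoside or base analogues that disturb DNA synthesis, cisplatin cross-links DNA, paclitaxel stabilises microtubules and cytochalasin D blocks actin polymerisation. Foreign compounds are cleared in steps: CYP enzymes of the endoplasmic reticulum and mitochondria insert oxygen, ADH, ALDH and AKR enzymes interconvert alcohols, aldehydes and ketones, and UGT, GST and SULT enzymes attach glucuronic acid, glutathione or sulfate. Many of the CYP, ADH4 and UGT2B genes are best known from liver, where HNF4 and C/EBP factors drive them, while AKR1B10, AKR1C1 and ALDH3A1 belong to the genes that NRF2 raises through antioxidant response elements. H460 cells carry wild-type p53 and a mutated KEAP1, the protein that otherwise keeps NRF2 low.

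The deposited ratio of 2 channels, read as log2, was turned to drug over untreated and centred on the median of its array; it gives no expression level, and a change in every cell cannot be told apart from a larger change in some cells. The direction is likely rather than stated in the sources used here: it was set by the sign at which MDM2, CDKN1A and the median of 17 p53 targets are positive in 5-FU. Arrays of the same drug correlated at 0.713 to 0.819 over all probes for the 4 drugs of 1 orientation, and turned 5-FU arrays of opposite orientation at 0.488 to 0.527 (probes are not independent replicates). The 5-FU arrays held 4357 to 6411 probe values, with 21.5 to 46.7% missing, and the other arrays 6989 to 7644, with 6.44 to 14.5% missing. Of the 48 genes, 44 had a value on at least 1 array and 23 on all 12, while CYP19A1, CYP26A1, CYP2E1 and CYP3A7 had none. A gene was tested in a drug where both replicates gave a value (in 5-FU, on both arrays of each) and where the 5-FU arrays gave an estimate of its channel effect, which 36 genes met in at least 1 drug; the genes without a test are not shown to be steady. "Rose" and "fell" are used for adjusted p under 0.05 (limma, Benjamini-Hochberg over all features tested), and errors are standard errors (SE) of the log2 ratio with n = 2 replicates per drug. Nothing in the labels ties replicates to separate cultures or tells if 1 untreated RNA served all drugs, so the p-values measure the spread between these samples, which may be technical, and a shared untreated sample would enter every drug's ratio. The channel effect of each gene could be measured only on the 5-FU arrays and was carried over to the other 4 drugs.

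Promoter sequences are shown for ADH4, CYP2B6 and CYP2C8, 3 genes whose ratios were low together in several drugs. ALDH3A2 and CYP7B1 were also low in several drugs and are not shown. RefSeq windows of GRCh38.p14 were matched for 37 of the 48 genes, and the 250 bases before each annotated gene start were searched; UGT1A10 and ALDH3A1 are named only. Capitals mark matches to the HNF4 core CAAAGTCCA, the C/EBP core TTGCNNAA and the antioxidant response element core TGACNNNGC, each on both strands, and to the TATA box TATAAA on the gene's strand.
ADH4 (chr4:99144298-99144547, minus strand): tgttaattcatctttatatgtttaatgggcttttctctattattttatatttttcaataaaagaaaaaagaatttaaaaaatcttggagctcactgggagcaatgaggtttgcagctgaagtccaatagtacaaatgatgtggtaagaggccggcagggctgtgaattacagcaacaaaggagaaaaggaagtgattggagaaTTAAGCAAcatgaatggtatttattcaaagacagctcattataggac
CYP2B6 (chr19:40991032-40991281, plus strand): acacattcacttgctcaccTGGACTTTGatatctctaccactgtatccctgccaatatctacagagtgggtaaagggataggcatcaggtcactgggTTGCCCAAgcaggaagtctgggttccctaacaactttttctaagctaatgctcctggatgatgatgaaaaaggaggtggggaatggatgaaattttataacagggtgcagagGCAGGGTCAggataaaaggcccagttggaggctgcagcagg
CYP2C8 (chr10:95069498-95069747, minus strand): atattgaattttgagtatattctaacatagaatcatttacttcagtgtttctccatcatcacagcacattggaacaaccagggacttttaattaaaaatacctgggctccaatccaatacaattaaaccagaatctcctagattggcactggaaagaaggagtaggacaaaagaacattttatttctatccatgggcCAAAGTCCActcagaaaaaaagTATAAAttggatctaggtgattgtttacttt
The ADH4 window held 1 C/EBP core on the opposite strand at -47 to -40, counted from the gene start. CYP2B6 held an HNF4 core at -231 to -223 and an antioxidant response element core at -41 to -33, both on the opposite strand, and a C/EBP core at -153 to -146. CYP2C8 held an HNF4 core at -53 to -45 and a TATA box at -31 to -26. Among all 35116 windows, the HNF4 core was found in 0.325%, the C/EBP core in 9.05%, the antioxidant response element core in 10.9% and the TATA box in 6.8%. Among the 37 matched windows of these enzymes the counts were 2 (CYP2B6 and CYP2C8), 8, 5 and 11. Besides ADH4 and CYP2B6, the C/EBP core was found for ALDH4A1, ALDH7A1, CYP19A1, GSTA2, SULT2A1 and UGT2B7. CYP19A1 had no value on any array, ALDH4A1 was not tested in cytarabine, and UGT2B7 was not tested in 5-FU or cytarabine. In the drugs where they were tested, ALDH4A1, ALDH7A1, GSTA2, SULT2A1 and UGT2B7 did not fall. ALDH3A2 and CYP7B1 are not among the enzymes with a match to any of the motifs. Whether they are among the 37 genes with a window is not given here, so this does not show promoters without the motifs. A link between matches and ratios was not tested. A match is a run of letters, not a measured binding site.

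Against untreated RNA, the 7 largest fitted changes were falls of UGT1A10 and ADH4 in cytarabine, paclitaxel and cytochalasin D and of CYP2B6 in cytarabine. In 5-FU 4 genes rose and 4 fell of 27 tested, 29.6%, against 15.6% of all features called, of which 4.44% rose and 11.2% fell. In cytarabine 3 rose and 9 fell of 32, 37.5%, against 22.0% of all features (10.9% rose and 11.1% fell). In cisplatin 2 rose and 5 fell of 35, 20%, against 16.3% (8.54% rose and 7.80% fell), a share near that of all features. In paclitaxel 2 rose and 5 fell of 33, 21.2%, against 6.69% (2.65% rose and 4.05% fell). In cytochalasin D 2 rose and 5 fell of 35, 20%, against 10.7% (4.38% rose and 6.33% fell). The median log2 ratio of the tested enzymes was 0.00 in 5-FU, 0.01 in cytarabine, 0.09 in cisplatin, 0.01 in paclitaxel and 0.01 in cytochalasin D, and that of all features 0.01, 0.04, 0.01, 0.02 and 0.02 in the same order. In all, 22 of the 48 genes, of which 36 were tested in at least 1 drug, passed in at least 1 drug or 1 pair of drugs. The share of all features passing in any of these comparisons was not computed, so this count only says which genes are named. The 22 genes made 97 calls, 41 against untreated RNA and 56 between drugs. Of these calls, 33 (18 and 15) were kept whichever 1 of the 10 replicates was left out. For CYP2B6 and ALDH3A2 against untreated RNA, 5-FU replicate 1 gives the channel effect alone and could not be left out, so "any 1 replicate" there means the other 9.

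**Figure D1:**
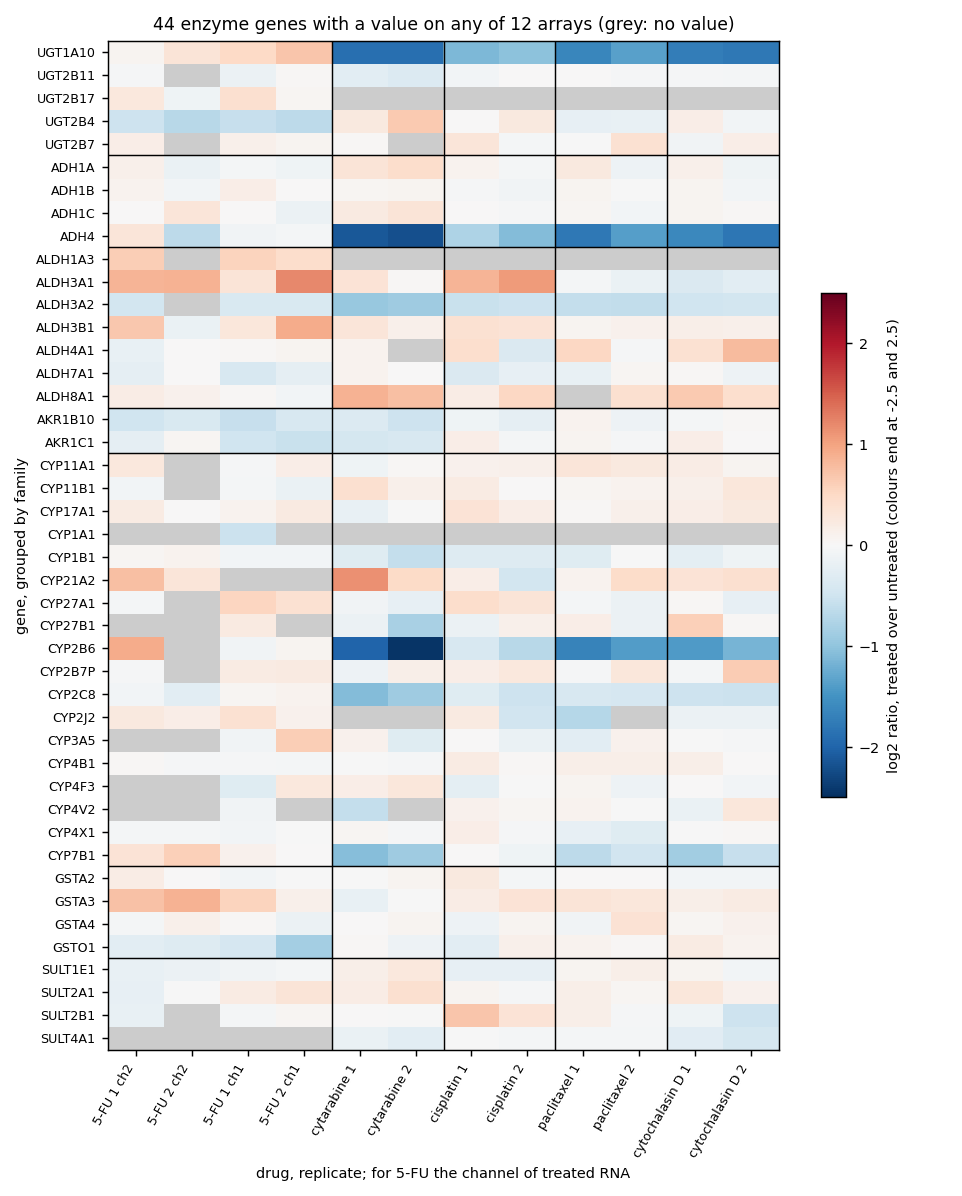
Log2 ratio of drug over untreated for the 44 enzyme genes with a value on any array, in rows grouped by family, on the 12 arrays in columns; blue is lower and red higher in the drug, and grey is no value. The dark blue runs in cytarabine, cisplatin, paclitaxel and cytochalasin D are UGT1A10 and ADH4, and CYP2B6 in 3 of these drugs, while most other rows are pale.

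UGT1A10, which glucuronidates phenols and oestrogens mainly outside the liver, was lower in cytarabine, cisplatin, paclitaxel and cytochalasin D and higher in 5-FU. Its log2 ratio was -1.88 on both cytarabine arrays, -1.12 and -1.02 on the cisplatin arrays, -1.62 and -1.36 on the paclitaxel arrays, and -1.72 and -1.79 on the cytochalasin D arrays. On the 5-FU arrays it was 0.07 and 0.33 with treated RNA in channel 2 and 0.50 and 0.69 with treated RNA in channel 1. The 8 arrays of the other drugs were all negative and the 4 of 5-FU all positive, with no overlap. The fitted fall was 4.23-fold in cytarabine (-2.08 ± 0.10, adjusted p = 0.000121), 2.41-fold in cisplatin (-1.27 ± 0.10, adjusted p = 0.000446), 3.23-fold in paclitaxel (-1.69 ± 0.10, adjusted p = 0.000693) and 3.89-fold in cytochalasin D (-1.96 ± 0.10, adjusted p = 0.000196). These 4 falls were kept without any 1 replicate. The rise in 5-FU was 1.32-fold (0.40 ± 0.08, adjusted p = 0.0131), and it no longer passed without 5-FU replicate 2 (0.28, adjusted p = 0.168). The channel effect of UGT1A10 was 0.20, and without that term the falls were -1.88, -1.07, -1.49 and -1.76 in the same order of drugs. The UGT1A genes share their last exons, and the probe sequence was not analysed here, so the values may read several UGT1A transcripts.

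The other glucuronosyltransferases went different ways. UGT2B4, which conjugates bile acids, fell in 5-FU: its 4 arrays read -0.52, -0.70, -0.57 and -0.65, 1.53-fold lower by the fit (-0.61 ± 0.11, adjusted p = 0.00657), a call that ended without 5-FU replicate 2 (-0.54, adjusted p = 0.0833). In cytarabine the UGT2B4 arrays read 0.25 and 0.65, a rise of 0.46 ± 0.13 (adjusted p = 0.0456) that ended without any 1 of 9 of the 10 replicates, cytarabine replicate 1 being the exception (values 0.26 to 0.48). In cisplatin, paclitaxel and cytochalasin D the UGT2B4 arrays lay between -0.20 and 0.25. UGT2B11 read -0.26 and -0.33 in cytarabine and between -0.06 and 0.01 in cisplatin, paclitaxel and cytochalasin D. UGT2B17, which glucuronidates androgens, had values only on the 5-FU arrays (0.27, -0.10, 0.39 and 0.06) and did not pass there (0.15 ± 0.11, adjusted p = 0.52), and UGT2B7, a morphine-conjugating enzyme, passed in none of the 3 drugs in which it was tested (limma; fitted ratios 0.06 to 0.20, unadjusted p 0.313 or above). The UGT2B genes are close relatives, and signal shared between them cannot be told apart.

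**Figure D2:**
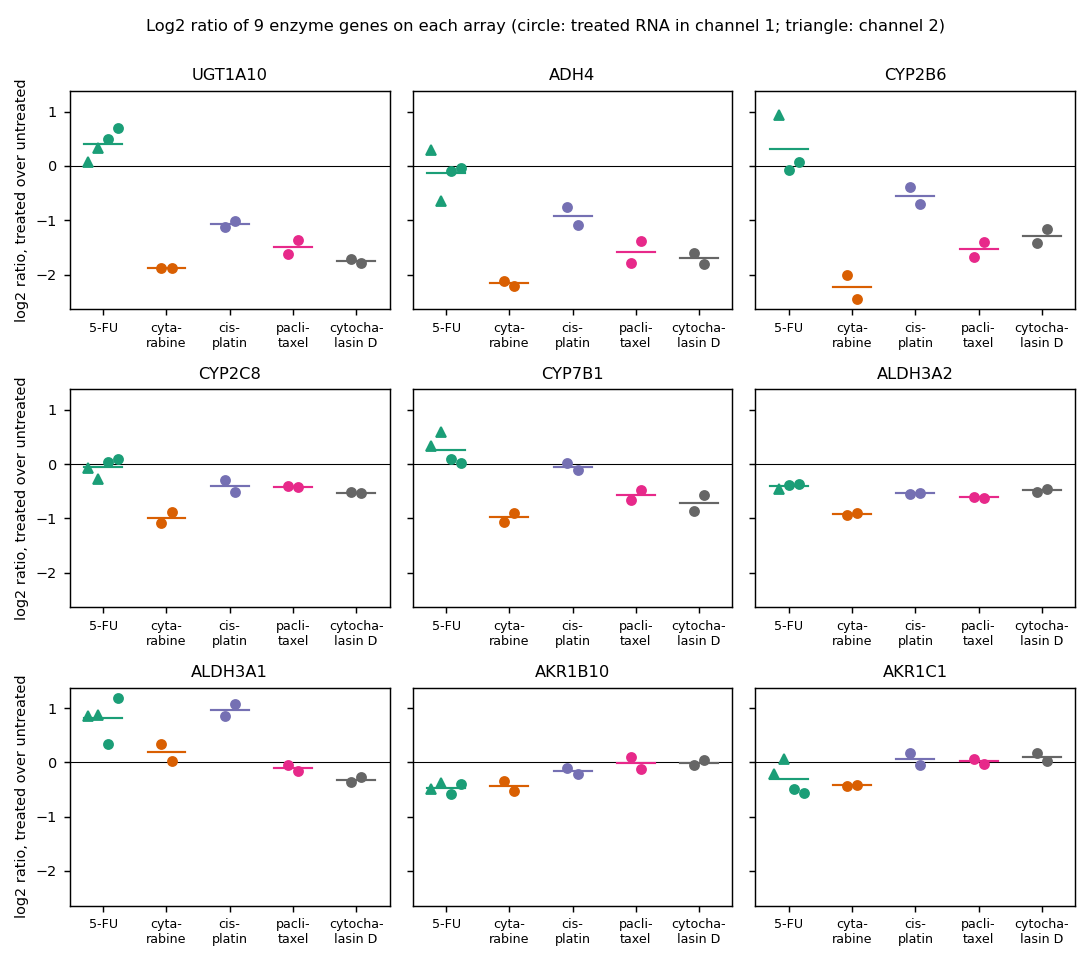
Log2 ratio of drug over untreated of 9 enzyme genes on every array, by drug; circles have treated RNA in channel 1, triangles in channel 2, and lines are means over arrays. UGT1A10 and ADH4 are negative on all 8 arrays of cytarabine, cisplatin, paclitaxel and cytochalasin D. ALDH3A1 is positive on all 5-FU and cisplatin arrays and also on the cytarabine arrays (0.34 and 0.03).

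ADH4, the class II alcohol dehydrogenase that acts on ethanol and retinol, showed falls of a like size. It read -2.11 and -2.21 in cytarabine, -0.76 and -1.09 in cisplatin, -1.78 and -1.39 in paclitaxel, and -1.60 and -1.80 in cytochalasin D. The 5-FU arrays read 0.29 and -0.65 with treated RNA in channel 2 and -0.09 and -0.04 in channel 1. All 8 arrays of the other drugs were below the lowest 5-FU array, and the cisplatin arrays were the nearest to it. The fall was 4.65-fold in cytarabine (-2.22 ± 0.17, adjusted p = 0.000448), 3.12-fold in paclitaxel (-1.64 ± 0.17, adjusted p = 0.00324) and 3.38-fold in cytochalasin D (-1.76 ± 0.17, adjusted p = 0.00236), each kept without any 1 replicate. In cisplatin it was 1.98-fold (-0.99 ± 0.17, adjusted p = 0.00928), and it ended without cisplatin replicate 2 (-0.82, adjusted p = 0.0688). In 5-FU ADH4 did not pass (-0.12 ± 0.14, 95% interval -0.44 to 0.20).

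The class I alcohol dehydrogenases ADH1A, ADH1B and ADH1C, which oxidise ethanol, stayed between -0.17 and 0.44 on all 12 arrays. ADH1C read 0.23 and 0.31 in cytarabine, a rise of 0.38 ± 0.07 (adjusted p = 0.00796) that ended without 5-FU replicate 2 (0.28) and without cytarabine replicate 2 (0.34). ADH1A read 0.32 and 0.44 in cytarabine and missed the threshold with the channel term (0.40, adjusted p = 0.0561), but rose without it (0.38, adjusted p = 0.034). These 3 genes are near-identical in sequence, and their probes may share signal.

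Of the P450 genes, CYP2B6, CYP2C8 and CYP7B1 carried the falls. CYP2B6, which metabolises cyclophosphamide and bupropion, read -2.01 and -2.46 in cytarabine, -0.39 and -0.70 in cisplatin, -1.67 and -1.40 in paclitaxel, and -1.42 and -1.15 in cytochalasin D. Its 3 5-FU values were 0.93 with treated RNA in channel 2 and -0.08 and 0.07 in channel 1. The main fit, which has the channel term, therefore did not test it in 5-FU. Without that term CYP2B6 did not pass in 5-FU (0.25 ± 0.15, adjusted p = 0.307). Its channel effect of -0.51 comes from 1 pair of arrays. With that term it fell 3.30-fold in cytarabine (-1.72 ± 0.20, adjusted p = 0.0029), kept without any 1 replicate, and 2.04-fold in paclitaxel (-1.03 ± 0.20, adjusted p = 0.0296), a call that ended without paclitaxel replicate 1 (-0.90) or 2 (-1.16). It did not pass in cisplatin (-0.04, adjusted p = 0.913) or cytochalasin D (-0.78, adjusted p = 0.0521). Without the channel term CYP2B6 fell in all 4 drugs: -2.23 in cytarabine, -0.55 in cisplatin, -1.54 in paclitaxel and -1.29 in cytochalasin D. In that fit it was 5.58-fold higher in 5-FU than in cytarabine (adjusted p = 0.000404), 1.73-fold higher than in cisplatin (adjusted p = 0.0377), 3.45-fold higher than in paclitaxel (adjusted p = 0.00167) and higher than in cytochalasin D by 1.54 on the log2 scale (adjusted p = 0.00273). CYP2B7P, the neighbouring pseudogene of high likeness, lay between -0.13 and 0.63 on all 11 arrays with a value.

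CYP2C8, which hydroxylates paclitaxel in liver, read -1.09 and -0.88 in cytarabine, -0.30 and -0.51 in cisplatin, -0.41 and -0.42 in paclitaxel, and -0.51 and -0.53 in cytochalasin D, and between -0.27 and 0.09 on the 5-FU arrays. All 8 arrays of the other drugs were lower than the 5-FU arrays. The fall in cytarabine was 2.15-fold (-1.11 ± 0.09, adjusted p = 0.000497) and was kept without any 1 replicate. The falls in cisplatin (-0.53), paclitaxel (-0.53) and cytochalasin D (-0.64), with adjusted p of 0.00862, 0.0157 and 0.00723, each ended without a replicate: cisplatin replicate 2 (-0.42), 5-FU replicate 2 (-0.47), paclitaxel replicate 1 (-0.54) or 2 (-0.53), and cytochalasin D replicate 2 (-0.63).

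CYP7B1, an oxysterol hydroxylase of bile acid synthesis, read -1.06 and -0.89 in cytarabine, 0.01 and -0.10 in cisplatin, -0.66 and -0.48 in paclitaxel, and -0.87 and -0.57 in cytochalasin D, and 0.34, 0.60, 0.10 and 0.02 on the 5-FU arrays. Cytarabine was lowest, and cisplatin and 5-FU were near or above 0. CYP7B1 fell 1.70-fold in cytarabine (-0.77 ± 0.11, adjusted p = 0.00357), kept without any 1 replicate, and 1.43-fold in cytochalasin D (-0.52 ± 0.11, adjusted p = 0.0259), a call that ended without 5-FU replicate 1 (-0.43) or cytochalasin D replicate 1 (-0.37). In paclitaxel it did not pass (-0.37, adjusted p = 0.0823) but did without the channel term (-0.57).

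Among the remaining P450 genes, CYP1B1, CYP27A1 and CYP11A1 passed in 1 drug each. CYP1B1, which hydroxylates oestradiol, read -0.30 and -0.59 in cytarabine (-0.37 ± 0.11, adjusted p = 0.047), and CYP27A1, the mitochondrial sterol hydroxylase, read -0.09 and -0.20 there (-0.44 ± 0.11, adjusted p = 0.0356). Both calls ended in several of the fits that left out 1 replicate. That of CYP1B1 ended without 7 of the replicates, cytarabine replicate 1 and the 2 paclitaxel replicates being the exceptions (values -0.38 to -0.23). That of CYP27A1 ended without cytarabine replicate 1 (-0.49) or 2 (-0.38) or either paclitaxel replicate (-0.44). The fall of CYP27A1 was lost without the channel term (-0.15, adjusted p = 0.211); its channel effect of 0.29 comes from 1 pair of 5-FU arrays. Without that term CYP27A1 instead rose in 5-FU (0.31) and cisplatin (0.38, adjusted p = 0.0162). CYP11A1, which cleaves the cholesterol side chain, read 0.30 and 0.25 in paclitaxel, a rise of 0.42 ± 0.09 (adjusted p = 0.0394) that ended without either cisplatin, paclitaxel or cytochalasin D replicate (0.39 to 0.44). Its 2 probes disagreed in cisplatin, at 0.32 and 0.30 against -0.11 and -0.05. The second probe had values in cisplatin only, so the CYP11A1 ratios in the other drugs, with the rise in paclitaxel, rest on the first. CYP21A2, the steroid hydroxylase of cortisol and aldosterone synthesis, read 1.14 and 0.47 in cytarabine, 0.17 and -0.47 in cisplatin, 0.09 and 0.45 in paclitaxel, 0.34 and 0.40 in cytochalasin D, and 0.74 and 0.31 on the 2 5-FU arrays with a value. It had no channel estimate; without that term it rose in cytarabine (0.81 ± 0.20, adjusted p = 0.0242), where its 2 replicates lay far apart, and against cisplatin the difference was 0.95 (adjusted p = 0.0547). CYP27B1, which activates vitamin D, read -0.14 and -0.81 in cytarabine and missed the threshold in the fit lacking that term (-0.47, adjusted p = 0.13). Both were picked out here after their values were seen, and CYP21A2 has a near-identical pseudogene that its probe may also read. CYP1A1 had a value on 1 array, and CYP3A5, CYP4F3, CYP4V2 and CYP2J2 had values on 8 to 10 arrays.

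**Figure D3:**
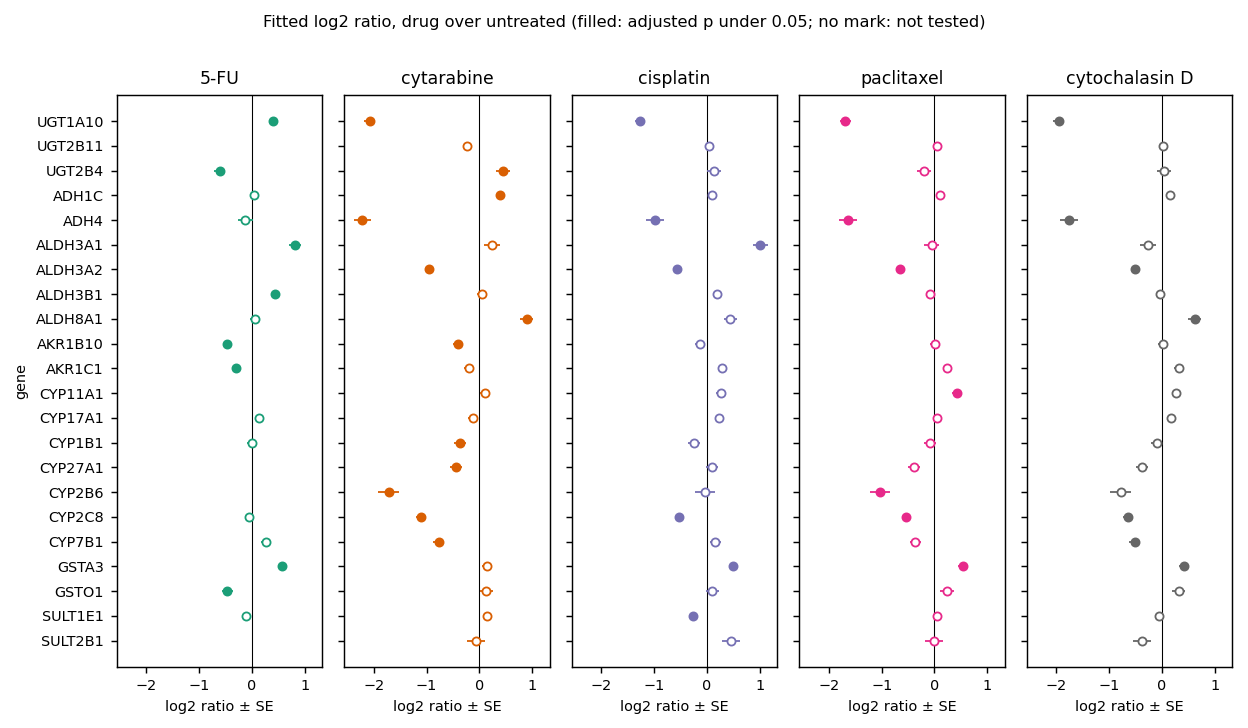
Fitted log2 ratio of drug over untreated ± SE for the 22 enzyme genes that passed in any comparison, 1 panel per drug; filled points have adjusted p under 0.05, and a gene without a point was not tested in that drug. UGT1A10 lies left of 0 in 4 panels and right of 0 in 5-FU. ALDH3A1 has filled points right of 0 in 5-FU and cisplatin, and an open point right of 0 in cytarabine.

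ALDH3A1, a cytosolic enzyme that oxidises aromatic and medium-chain aldehydes and the activated form of cyclophosphamide, was higher in 5-FU and cisplatin. It read 0.86, 0.87, 0.33 and 1.19 on the 5-FU arrays and 0.86 and 1.07 on the cisplatin arrays. In cytarabine it read 0.34 and 0.03, in paclitaxel -0.04 and -0.16, and in cytochalasin D -0.37 and -0.27. The 5-FU arrays spread widely, the lowest, replicate 1 with treated RNA in channel 1, being near the higher cytarabine array. The rise was 1.76-fold in 5-FU (0.81 ± 0.12, adjusted p = 0.00226) and 2.02-fold in cisplatin (1.01 ± 0.14, adjusted p = 0.00453), both kept without any 1 replicate. It did not pass in the other 3 drugs, with 95% intervals of -0.10 to 0.57 in cytarabine, -0.39 to 0.28 in paclitaxel and -0.60 to 0.07 in cytochalasin D.

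ALDH3A2, the fatty aldehyde dehydrogenase of the endoplasmic reticulum, moved the other way. It read -0.94 and -0.90 in cytarabine, -0.55 and -0.52 in cisplatin, -0.60 and -0.61 in paclitaxel, and -0.51 and -0.46 in cytochalasin D, and its 3 5-FU values were -0.46, -0.39 and -0.37. Replicates differed by less than 0.05 in these 4 drugs, and all 11 values were negative. ALDH3A2 fell 1.94-fold in cytarabine (-0.96 ± 0.07, adjusted p = 0.000796), 1.49-fold in cisplatin (adjusted p = 0.00453) and 1.56-fold in paclitaxel (adjusted p = 0.00591), each kept without any 1 replicate. The fall of ALDH3A2 in cytochalasin D (-0.52, adjusted p = 0.00979) ended without cytochalasin D replicate 1 (-0.50) or 2 (-0.54). In 5-FU the main fit did not test ALDH3A2, and without the channel term it fell (-0.40, adjusted p = 0.00127).

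ALDH8A1, which oxidises retinal and metabolites of tryptophan, read 0.87 and 0.75 in cytarabine, 0.19 and 0.52 in cisplatin, 0.41 on the 1 paclitaxel array with a value, and 0.65 and 0.42 in cytochalasin D, and 0.18, 0.11, 0.02 and -0.08 in 5-FU. All values of the other 4 drugs were above those of 5-FU. In cisplatin it lay just past the threshold (0.44 ± 0.12, adjusted p = 0.0502). It rose 1.86-fold in cytarabine (0.89 ± 0.12, adjusted p = 0.00455), kept without any 1 replicate. In cytochalasin D it rose by 0.62 (adjusted p = 0.0267), a call that ended without 5-FU replicate 1 (0.62) or 2 (0.61) or cytochalasin D replicate 1 (0.50) or 2 (0.73). ALDH3B1, which acts on lipid-derived aldehydes, read 0.68, -0.17, 0.28 and 0.92 on the 5-FU arrays, with 1 array below 0. It rose 1.35-fold in 5-FU (0.43 ± 0.06, adjusted p = 0.00226) and was kept without any 1 replicate. The 2 arrays of each 5-FU replicate were averaged before the fit, so the spread between them does not enter this SE. Those of replicate 2 read -0.17 and 0.92. ALDH1A3, a retinal dehydrogenase, had values only on 3 5-FU arrays (0.62, 0.56 and 0.44), so the main fit did not test it. Without the channel term ALDH1A3 rose in 5-FU (0.52 ± 0.08, adjusted p = 0.0286). The 2 probes of ALDH7A1 disagreed in cisplatin, at -0.73 and -0.49 against 0.01 and 0.08. They also disagreed in 5-FU, at -0.66, -0.71 and -0.40 against 0.21, -0.09 and -0.06 on the same arrays. The first probe had no value in cytarabine, in paclitaxel replicate 2, or in 5-FU replicate 2 with treated RNA in channel 2. There the gene's value is the second probe alone. The gene did not pass in any drug (limma, adjusted p 0.158 or above).

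The 2 aldo-keto reductases, both known NRF2 targets, were lower in 5-FU. AKR1B10, which reduces retinal and other aldehydes, read -0.50, -0.38, -0.58 and -0.40 on the 5-FU arrays and -0.34 and -0.53 in cytarabine; the arrays of cisplatin, paclitaxel and cytochalasin D lay between -0.22 and 0.09, above all of these. AKR1B10 fell 1.38-fold in 5-FU (-0.47 ± 0.08, adjusted p = 0.00489) and 1.32-fold in cytarabine (-0.41 ± 0.10, adjusted p = 0.0237). The first call ended without 5-FU replicate 1 (-0.39), the second without 5-FU replicate 2 (-0.39) or cytarabine replicate 2 (-0.31).

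AKR1C1, which reduces progesterone, read -0.22 and 0.06 on the 5-FU arrays with treated RNA in channel 2, -0.50 and -0.56 on those with treated RNA in channel 1, and -0.44 and -0.41 in cytarabine, against -0.04 to 0.17 in the other 3 drugs. It fell in 5-FU (-0.30 ± 0.07, adjusted p = 0.0245), a call that ended without 5-FU replicate 1 (-0.25) or 2 (-0.36). Its channel effect was -0.22: in cytarabine AKR1C1 passed without the channel term (-0.43, adjusted p = 0.00499) and not with it (-0.20, adjusted p = 0.135). The AKR1C genes are close to identical, and the AKR1C1 probe may read several of them.

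GSTA3, an alpha-class transferase that also isomerises steroids, was the glutathione transferase that rose. It read 0.73, 0.87, 0.56 and 0.12 in 5-FU, -0.18 and -0.01 in cytarabine, 0.19 and 0.34 in cisplatin, 0.32 and 0.29 in paclitaxel, and 0.14 and 0.21 in cytochalasin D. The cytarabine arrays were below all others. GSTA3 rose 1.49-fold in 5-FU (0.57 ± 0.07, adjusted p = 0.000836), kept without any 1 replicate. It also rose in cisplatin (0.50 ± 0.08), paclitaxel (0.54 ± 0.08) and cytochalasin D (0.41 ± 0.08), with adjusted p of 0.00862, 0.0124 and 0.0254, but these calls ended without 5-FU replicate 2 (0.35, 0.40 and 0.27 in the same order), which enters through the channel effect of -0.23, and also without cisplatin replicate 2 (0.43), paclitaxel replicate 1 (0.52) or 2 (0.56), and cytochalasin D replicate 1 (0.44) or 2 (0.37). Without the channel term the rise in cytochalasin D was 0.18 and did not pass (adjusted p = 0.168), while those in cisplatin (0.26) and paclitaxel (0.31) did.

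GSTO1, an omega-class enzyme that reduces arsenic compounds and dehydroascorbate, read -0.27, -0.32, -0.42 and -0.85 in 5-FU, and between -0.26 and 0.21 in the other drugs. It fell 1.38-fold in 5-FU (-0.46 ± 0.10, adjusted p = 0.0184), and the call ended without 5-FU replicate 2 (-0.34). GSTA2 and GSTA4 did not pass in any drug (limma; adjusted p 0.248 or above).

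Among the sulfotransferases, SULT1E1, which inactivates oestrogens, read -0.21 on both cisplatin arrays, a fall of 0.26 on the log2 scale (-0.26 ± 0.07, adjusted p = 0.0469) that ended without any 1 of the 10 replicates (-0.27 to -0.26) and without the channel term (-0.21). SULT2B1, which sulfates cholesterol, read 0.69 and 0.34 in cisplatin against -0.18, -0.05 and 0.05 in 5-FU and -0.11 and -0.51 in cytochalasin D; it passed in cisplatin only without the channel term (0.52, adjusted p = 0.0237). SULT2A1, the liver and adrenal sulfotransferase of dehydroepiandrosterone, passed in cytarabine only without that term (0.29, adjusted p = 0.032), and SULT4A1, with no values in 5-FU, read -0.27 and -0.44 in cytochalasin D and passed there without it (-0.36, adjusted p = 0.0179).

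**Figure D4:**
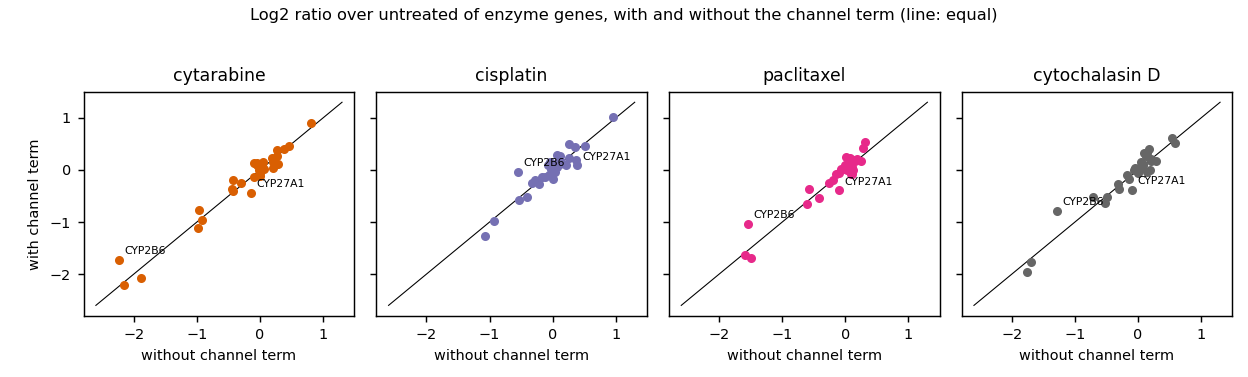
Fitted log2 ratio of drug over untreated with the channel term (vertical) and without it (horizontal) for each tested enzyme gene, in the 4 drugs hybridised in 1 orientation; the line marks equal values and genes more than 0.25 away from it are named. CYP2B6 lies above the line in all 4 panels and CYP27A1 below it, both with a channel effect from 1 pair of 5-FU arrays.

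The term for the channel bears on the 4 drugs hybridised in 1 orientation. Without it 6 enzymes rose and 5 fell of 40 tested in 5-FU, beside 19.1% of all features called (6.21% higher and 12.9% lower). In cytarabine 8 rose and 10 fell of 37 (25.9%; 10.7% and 15.2%), in cisplatin 6 and 5 of 41 (15.8%; 6.68% and 9.12%), in paclitaxel 2 and 6 of 39 (9.58%; 1.81% and 7.77%) and in cytochalasin D 1 and 7 of 41 (11.0%; 2.38% and 8.64%). The 13 genes added in 5-FU each lacked a value on at least 1 of its 4 arrays, and those added in the other drugs had no channel estimate.

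The 10 pairs of drugs were compared directly; the doses differ between the drugs. 5-FU set against the other 4 drugs gave most of the differences, with p-values adjusted over all features within each pair. Against cytarabine, 6 enzymes were higher and 4 lower in 5-FU of 24 tested, beside 17.9% of all features called (6.66% higher and 11.2% lower). Against cisplatin these counts were 3 and 2 of 26 (14.0%; 4.18% higher and 9.85% lower). Against paclitaxel they were 6 and 3 of 24 (10.9%; 3.96% higher and 6.97% lower), and against cytochalasin D 6 and 4 of 26 (11.1%; 3.84% higher and 7.28% lower). Comparisons with 5-FU share its 4 arrays and are not independent of each other. The 5-FU arrays also differ from the others in orientation and in missing values (21.5 to 46.7% against 6.44 to 14.5%). UGT2B17 had values only on the 5-FU arrays and NAT2 only on the others. A difference between these sets of arrays, or between their untreated RNA, cannot be told apart from an effect of 5-FU.

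UGT1A10 was higher in 5-FU than in each other drug, by 5.57-fold against cytarabine (2.48 ± 0.13, adjusted p = 8.35e-05), 3.18-fold against cisplatin, 4.25-fold against paclitaxel and 5.12-fold against cytochalasin D (2.36 ± 0.13, adjusted p = 6.91e-05), and these 4 calls were kept without any 1 replicate. ADH4 was 4.27-fold higher in 5-FU than in cytarabine (adjusted p = 0.000977), 2.87-fold higher than in paclitaxel (adjusted p = 0.00398) and 3.11-fold higher than in cytochalasin D (adjusted p = 0.00292), also kept. The ADH4 difference of 5-FU from cisplatin was smaller (0.86 ± 0.22, adjusted p = 0.0366) and ended without any 1 of 8 replicates, the 2 of paclitaxel being the exceptions (0.70 to 1.03). CYP2C8 and CYP7B1 were higher in 5-FU than in cytarabine by 2.08-fold (adjusted p = 0.00114) and 2.05-fold (adjusted p = 0.00237), and UGT2B4 was 2.09-fold lower (adjusted p = 0.00544), all 3 kept without any 1 replicate.

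The other calls of 5-FU against a drug each ended without at least 1 replicate. Some ended with a ratio that was unchanged or larger, so an ending does not by itself show that the ratio rests on that replicate. ALDH3A1 was higher in 5-FU than in paclitaxel (0.87, adjusted p = 0.0228) and cytochalasin D (1.08, adjusted p = 0.00891), and without 5-FU replicate 2 neither passed (0.43 and 0.65). The first also ended without either paclitaxel replicate (0.93 and 0.81) and the second without cytochalasin D replicate 1 (1.03). Between 5-FU and cisplatin ALDH3A1 differed by -0.20, with a 95% interval of -0.63 to 0.23. AKR1C1 was lower in 5-FU than in cisplatin (-0.59, adjusted p = 0.0121), paclitaxel (-0.55, adjusted p = 0.0203) and cytochalasin D (-0.62, adjusted p = 0.0114), and each call ended without 5-FU replicate 2 (-0.56, -0.52 and -0.60). Against cisplatin it also ended without 5-FU replicate 1 (-0.62) or cisplatin replicate 1 (-0.49), against paclitaxel without 5-FU replicate 1 (-0.57) or either paclitaxel replicate (-0.50 and -0.59), and against cytochalasin D without cytochalasin D replicate 1 (-0.55). GSTO1 was lower in 5-FU than in cytarabine (-0.59), paclitaxel (-0.70) and cytochalasin D (-0.78), with adjusted p of 0.0413, 0.0301 and 0.0199; without 5-FU replicate 2 these were -0.37, -0.48 and -0.56, none passing. The first GSTO1 call also ended without 5-FU replicate 1 (-0.81) or any 1 replicate of cytarabine, paclitaxel or cytochalasin D (-0.67 to -0.51), that against paclitaxel without either paclitaxel replicate (-0.67 and -0.73), and that against cytochalasin D without either cytochalasin D replicate (-0.72 and -0.84). ALDH3B1 was higher in 5-FU than in cytarabine (0.39), paclitaxel (0.51) and cytochalasin D (0.47), and without 5-FU replicate 2 these were 0.07, 0.20 and 0.15, none passing. The ALDH3B1 calls also ended without cytarabine replicate 2 (0.29) or either cytochalasin D replicate (0.39) in the first, paclitaxel replicate 1 (0.49) in the second and either cytochalasin D replicate (0.47) in the third. With every array as its own observation, these ALDH3B1 differences did not pass by limma (adjusted p = 0.338, 0.265 and 0.321 in the same order).

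CYP2C8 was higher in 5-FU than in cisplatin (0.48), paclitaxel (0.48) and cytochalasin D (0.59), with adjusted p of 0.0304, 0.0334 and 0.0147. All 3 CYP2C8 calls ended without either 5-FU replicate (0.50 and 0.45, 0.51 and 0.46, 0.62 and 0.57) or either cytochalasin D replicate (0.48, 0.48, and 0.60 and 0.58); the first also ended without cisplatin replicate 2 (0.37) or either paclitaxel replicate (0.48), and the second without either paclitaxel replicate (0.49 and 0.48). CYP7B1 was higher in 5-FU than in paclitaxel (0.63, adjusted p = 0.0242) and cytochalasin D (0.78, adjusted p = 0.00979); both calls ended without 5-FU replicate 1 (0.59 and 0.74), and the first also without 5-FU replicate 2 (0.67) or paclitaxel replicate 1 (0.54).

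UGT2B4 was lower in 5-FU than in cisplatin (-0.74, adjusted p = 0.0271) and cytochalasin D (-0.66, adjusted p = 0.0498). The first UGT2B4 call ended without 5-FU replicate 1 (-0.78) or 2 (-0.70) or cisplatin replicate 2 (-0.61), the second without any 1 of 8 replicates, the 2 of cytarabine being the exceptions (-0.77 to -0.54). AKR1B10 was lower in 5-FU than in paclitaxel (-0.48, adjusted p = 0.0472) and cytochalasin D (-0.49, adjusted p = 0.0442); both calls ended without any 1 replicate of 5-FU, cisplatin or cytochalasin D, and the first also without paclitaxel replicate 1 (-0.57 to -0.37 in all). Against cytarabine, 5-FU was also lower in ALDH8A1 (-0.84, adjusted p = 0.0126) and ADH1C (-0.34, adjusted p = 0.0319) and higher in GSTA3 (0.43, adjusted p = 0.0317). ALDH8A1 ended without 5-FU replicate 1 (-0.89) or 2 (-0.79) or cytarabine replicate 1 (-0.78), ADH1C without any 1 replicate of 5-FU, cytarabine or cytochalasin D (-0.41 to -0.27), and GSTA3 without 5-FU replicate 1 (0.21), cytarabine replicate 1 (0.35) or either cytochalasin D replicate (0.43).

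Cytarabine and cisplatin, both aimed at DNA, differed in 14 of 37 enzymes, 2 higher and 12 lower in cytarabine, beside 22.1% of all features called (8.89% higher and 13.2% lower). CYP2B6 was 3.22-fold lower in cytarabine than in cisplatin (-1.69 ± 0.20, adjusted p = 0.00344), ADH4 2.35-fold (adjusted p = 0.00665), CYP7B1 1.90-fold (adjusted p = 0.00352) and UGT1A10 1.75-fold (adjusted p = 0.00446), and these 4 calls were kept without any 1 replicate. ALDH3A1 was 1.71-fold lower in cytarabine (-0.78 ± 0.17, adjusted p = 0.0173), ending without cytarabine replicate 2 (-0.62), cisplatin replicate 1 (-0.88) or cisplatin replicate 2 (-0.67). CYP2C8 was lower by a log2 ratio of -0.58 (adjusted p = 0.0092), ending without cisplatin replicate 1 (-0.47). SULT1E1 was higher in cytarabine (0.42, adjusted p = 0.0143), ending without cytarabine replicate 2 (0.36) or either cisplatin replicate (0.42 and 0.41). ADH1C was higher in cytarabine (0.29), ending without any 1 replicate of cytarabine, cisplatin or cytochalasin D (0.25 to 0.33). Lower in cytarabine were CYP27A1 (-0.53), ending without cytarabine replicate 2 (-0.48) or either cisplatin replicate (-0.47 and -0.59), AKR1C1 (-0.49), ending without either cytarabine replicate (-0.47 and -0.51) or cisplatin replicate 1 (-0.38), and ALDH3A2 (-0.38), ending without any 1 replicate of either drug (-0.41 to -0.36). The falls of CYP17A1 (-0.36), which serves cortisol and androgen synthesis, GSTA3 (-0.36) and UGT2B11 (-0.27) ended without 7, 8 and 8 replicates: CYP17A1 without any but cisplatin replicate 2 and the 2 of paclitaxel (-0.44 to -0.26), GSTA3 (-0.44 to -0.27) and UGT2B11 (-0.31 to -0.23) without any but the 2 of 5-FU.

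Cisplatin exceeded the 2 cytoskeletal drugs in a few enzymes, 9.76% of those tested against cytochalasin D and 5.13% against paclitaxel. Over all features 7.74% and 5.80% were called, so both shares are near those of all features. ALDH3A1 was 2.43-fold higher in cisplatin than in cytochalasin D (1.28 ± 0.17, adjusted p = 0.00522), kept without any 1 replicate, and 2.09-fold higher than in paclitaxel (1.07 ± 0.17, adjusted p = 0.0135), ending without cisplatin replicate 2 (0.96) or either paclitaxel replicate (1.13 and 1.01). Of 41 enzymes tested between cisplatin and cytochalasin D, 4 were higher in cisplatin, beside 7.74% of all features called (5.22% higher and 2.52% lower), the others being UGT1A10 (0.69), CYP7B1 (0.67) and SULT2B1 (0.82). UGT1A10 ended without any 1 replicate of either drug (0.64 to 0.74), CYP7B1 without either cisplatin replicate (0.62 and 0.73) or cytochalasin D replicate 1 (0.53), and SULT2B1 without 7 of the replicates (0.62 to 1.00), the 2 of 5-FU and cytochalasin D replicate 1 being the exceptions. Between cisplatin and paclitaxel 2 of 39 were higher in cisplatin (5.80% of all features called; 4.09% higher and 1.71% lower), ALDH3A1 and CYP2B6 (0.99 ± 0.20, adjusted p = 0.0384), the CYP2B6 call ending without any 1 replicate of cisplatin, paclitaxel or cytochalasin D (0.84 to 1.15).

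Few of these enzymes passed between cytarabine, paclitaxel and cytochalasin D. Of 37 tested, 2 were lower in cytarabine than in cytochalasin D, beside 3.20% of all features called (1.36% higher and 1.83% lower). These were AKR1C1 (-0.52, adjusted p = 0.0452), which ended without any 1 of the 10 replicates (-0.60 to -0.44), and ALDH3A2 (-0.43, adjusted p = 0.0379), which ended without any 1 of 8, the 2 of 5-FU being the exceptions (-0.46 to -0.41). Between cytarabine and paclitaxel 0 of 36 passed by limma (0.00% of all features called), with 14 at an unadjusted p under 0.05. Of all 6558 features tested in that pair, 1153 had an unadjusted p under 0.05. Some enzymes did pass in that pair with p adjusted over all pairs together, as given in the closing section. Between paclitaxel and cytochalasin D 0 of 39 passed by limma (0.204%; 0.117% higher and 0.0875% lower), with 3 at an unadjusted p under 0.05. A missing call here does not show that these drugs are alike. For ADH4 the 95% interval of cytarabine against paclitaxel was -1.03 to -0.12 and that of paclitaxel against cytochalasin D -0.34 to 0.57. For UGT1A10 these intervals were -0.66 to -0.12 and 0.00 to 0.54. Before adjustment, the intervals of cytarabine against paclitaxel thus exclude 0 for both genes.

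Genes that work beside these enzymes were read from 4 lists. Of 27 NRF2 targets outside the families, 12 were on the array and 7 to 11 tested: 1 rose and 2 fell of 7 in 5-FU, 3 and 3 of 11 in cytarabine, 1 and 4 of 11 in cisplatin, and 2 of 11 rose in each of paclitaxel and cytochalasin D. These are 42.9, 54.5, 45.5, 18.2 and 18.2%, against 15.6, 22.0, 16.3, 6.69 and 10.7% of all features called in the same drugs. Their median log2 ratio was 0.00, -0.12, -0.01, -0.08 and 0.03 in this order of drugs. HMOX1, which degrades haem, read 2.93, 2.62, 2.13 and 2.13 in 5-FU and rose 5.47-fold, kept without any 1 replicate. SLC7A11, the cystine carrier, fell in 5-FU (-1.52), cytarabine (-0.65) and cisplatin (-1.36), each kept without any 1 replicate, and TXNRD1, thioredoxin reductase, fell in the same 3 drugs (-0.78, -0.45 and -0.47), the last 2 ending without cytarabine replicate 1 (-0.41) or cisplatin replicate 2 (-0.41). The list held rises and falls within 1 drug, and so did the NRF2 targets among the enzymes in 5-FU, where ALDH3A1 rose and AKR1B10 and AKR1C1 fell. In cytochalasin D HMOX1 rose by 0.74, ending without cytochalasin D replicate 1 (0.68). The further rises of HMOX1 in cytarabine (0.49), cisplatin (0.38) and paclitaxel (0.50), and of CBR1, carbonyl reductase, in cytarabine (0.41), paclitaxel (0.54) and cytochalasin D (0.48), ended without the channel term (0.17, 0.06 and 0.18 for HMOX1, and 0.06, 0.19 and 0.12 for CBR1). Each of these 6 calls also ended without at least 1 replicate of its own drug: 0.46 and 0.52 for HMOX1 without either replicate of cytarabine, 0.47 and 0.30 without either of cisplatin, 0.36 without paclitaxel replicate 1, and for CBR1 0.36 and 0.47, 0.45 and 0.64, and 0.56 and 0.39 without either replicate of cytarabine, paclitaxel and cytochalasin D. The 3 HMOX1 calls ended without 5-FU replicate 1 as well (0.41, 0.31 and 0.43).

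Of 27 receptors and electron donors, 13 were on the array and 6 to 8 tested. CEBPB, a C/EBP factor, rose in cytarabine (0.86 ± 0.10, adjusted p = 0.00176), kept without any 1 replicate, and in paclitaxel (0.64 ± 0.10, adjusted p = 0.0107), ending without paclitaxel replicate 1 (0.57) and without the channel term (0.28). In cisplatin CEBPB did not pass with that term (-0.18) and fell without it (-0.55, adjusted p = 0.00386). RXRA, the partner of the drug-sensing nuclear receptors, fell in 5-FU (-0.37) and rose in cytarabine (0.43), the first ending without either 5-FU replicate (-0.29 and -0.45) or either cytochalasin D replicate (-0.37) and the second without 5-FU replicate 2 (0.34), cytarabine replicate 1 (0.24) or either cytochalasin D replicate (0.43). Both RXRA calls also ended with single probes in place of the mean over probes (-0.69, adjusted p = 0.0591, in 5-FU and 0.27, adjusted p = 0.443, in cytarabine). UGP2, which makes UDP-glucose for glucuronidation, fell in 5-FU (-0.52), ending without 5-FU replicate 2 (-0.32), and PPARG rose in cisplatin (0.89, adjusted p = 0.0376), ending without any 1 replicate of cytarabine, cisplatin or paclitaxel (0.84 to 0.94). In all 1 rose and 2 fell of 6 in 5-FU (50%, against 15.6% of all features), 4 of 8 rose in cytarabine (50%, against 22.0%), and 1 of 8 rose in each of cisplatin and paclitaxel (12.5%, against 16.3% and 6.69%); in cytochalasin D 0 passed by limma, with 0 at an unadjusted p under 0.05.

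Of 37 other drug and aldehyde enzymes, 19 were on the array and 7 or 8 tested, and CBR1, also among the NRF2 targets, and PON1 passed in at least 1 drug. In 5-FU 0 of 7 and in cisplatin 0 of 8 of these passed by limma, with 1 and 2 at an unadjusted p under 0.05. PON1, paraoxonase, fell in cytarabine (-0.25 ± 0.06, adjusted p = 0.0313), ending without any 1 replicate of 5-FU, cytarabine or cytochalasin D (-0.27 to -0.22). NAT2, an arylamine acetyltransferase known from liver, was chosen after its values were seen: it read -1.52 and -1.79 in cytarabine, -0.96 and -1.01 in cisplatin, -1.18 and -1.38 in paclitaxel, and -1.37 and -1.20 in cytochalasin D, with no 5-FU value. Without the channel term, which NAT2 lacks, it fell 3.15-fold, 1.98-fold, 2.43-fold and 2.44-fold in these drugs (adjusted p = 8.37e-05, 0.00112, 0.000518 and 0.000549), an order of sizes with cytarabine first and cisplatin last.

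Of 32 enzymes and carriers of the 5 drugs, 18 were on the array and 10 to 13 tested. SLC29A1, the nucleoside carrier that takes up cytarabine, read -0.49 and -0.62 in cytarabine and fell 1.65-fold (-0.72 ± 0.08, adjusted p = 0.00182), kept without any 1 replicate; it also fell in cytochalasin D (-0.44), ending without 5-FU replicate 1 (-0.24) or cytochalasin D replicate 1 (-0.47) or 2 (-0.41). UPP1, uridine phosphorylase, fell in cisplatin (-0.57), ending without 5-FU replicate 1 (-0.47) or cisplatin replicate 1 (-0.40), and MT1X, a metallothionein, fell in 5-FU (-0.55), kept without any 1 replicate. TK1, thymidine kinase, rose in cytarabine (0.52) and cisplatin (0.47) and fell in 5-FU (-0.39) and cytochalasin D (-0.52); the call in cytarabine ended without 5-FU replicate 2 (0.45) or either cytarabine replicate (0.49 and 0.55), those in cisplatin (0.35 to 0.58) and 5-FU (-0.52 to -0.25) without any 1 of 8 replicates, the 2 of cytochalasin D being the exceptions, and that in cytochalasin D without any 1 of 10 (-0.69 to -0.35) and without the channel term (-0.28). In all 3 of 10 fell in 5-FU (30%, against 15.6% of all features), 1 rose and 1 fell of 13 in each of cytarabine and cisplatin (15.4%, against 22.0% and 16.3%), and 2 of 13 fell in cytochalasin D (15.4%, against 10.7%). In paclitaxel 0 of the 13 tested passed by limma, with 3 at an unadjusted p under 0.05.

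The p53 targets that set the sign held 28 genes, of which 19 were on the array. In 5-FU 5 rose and 1 fell of 9 tested, in cytarabine 1 and 2 of 12, in cisplatin 10 rose of 12, and in cytochalasin D 1 fell of 12. These are 66.7, 25, 83.3 and 8.33%, against 15.6, 22.0, 16.3 and 10.7% of all features, so that the shares in cytarabine and cytochalasin D are near those of all features. In paclitaxel 0 of 11 passed by limma, with 3 at an unadjusted p under 0.05. The values of this list in 5-FU chose the direction of the ratios on all 12 arrays, so its counts in 5-FU are a description. The direction in the other drugs rests on the same choice.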

How the data were processed

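H460 RNA from drug-treated and from untreated cells was co-hybridised on 12 arrays of 2 channels, grouped by the drug, replicate and channel per the labels. The authors deposited 1 log ratio per probe, read here as log2 of channel 1 over channel 2. The sources used here state no base, numerator, normalization or spot filter; another base would change sizes and not calls. Signal over background is unknown, and the number of arrays limits the precision.

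Of 8170 probes, 5930 matched 1 gene, 79 several and 2161 none in the array annotation; probes of a gene were averaged, giving 7739 features. Arrays were turned to drug over untreated and centred on their median. The 2 orientations of a 5-FU replicate were averaged. limma 3.58.1 (R 4.3.3) fitted 10 replicates of 5 drugs, plus 1 channel observation per feature from the 5-FU array pairs (weight 4 with 2 pairs, 2 with 1); the 6 pairs of drugs of 1 orientation were fitted without it. The error of that observation is assumed from its weight, so errors of the 4 other drugs against untreated may be too small. The script was tested on simulated data. p-values were Benjamini-Hochberg adjusted over all features tested, threshold 0.05.

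The members, the 5 lists (the fifth, p53 targets, set the sign) and the tests were chosen with earlier results of these data known. Named are the enzymes passing in at least 1 comparison and, of each other list, up to 4 passing genes with the largest ratio. A pair of probes with several symbols (NDUFS8;ALDH3B1 and SULT1A4;SULT1A3) was left out. Replicate numbers do not pair the samples: differences between replicates 1 and 2 correlated at -0.0611 to 0.0904 between drugs, with 0 of 10 pairs of drugs above 0.1. Alternatives are given in the closing section.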

Additional observations from a re-analysis of the deposited data

How the results depend on the processing

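Each count of enzymes called and each named ratio was recomputed under the other settings. Among these settings, the share of all features called is given only for the fit without the channel term, above. The counts below therefore show how far the calls hold and do not set the enzymes beside all features. Of the 97 calls, 86 were kept with no channel term, 82 with every array as its own observation, 94 with no centring, 83 with arrays scaled to the same spread, 85 with the replicate block, 96 with single probes, 82 with p adjusted over all drugs or all pairs together, 46 with only the arrays of the drugs compared and 26 with a minimum absolute log2 ratio of 1; of those that could be estimated, 79 of 79 with only probes that have a value on all arrays, and 75 of 75 with moderation over features that have the channel observation, an alternative chosen after seeing the data. No call of these enzymes changed direction; of the other named genes TXNRD1 in cytochalasin D was -0.30 and passed without the channel term, against 0.03 with it. The cause was not tested.

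With every array as its own observation 13 enzymes passed in 5-FU, 9 in cytarabine against cisplatin and 1 in cytarabine against cytochalasin D. With no channel term 11 passed in cisplatin. With arrays scaled, 9 passed in cytarabine against cisplatin, 0 in cytarabine against cytochalasin D (limma; 11 at an unadjusted p under 0.05) and 5 in cisplatin against paclitaxel. With probes on all arrays, 4 passed in paclitaxel, 1 in cytarabine against paclitaxel and 5 in cisplatin against paclitaxel. With the replicate block, 0 passed in cytarabine against cytochalasin D (15 unadjusted), and no other count moved by over 1.5 times. With only the arrays compared, which leaves fewer residual degrees of freedom, 0 passed in 5-FU (13 unadjusted), 2, 4 and 5 in 5-FU against cisplatin, paclitaxel and cytochalasin D, 6, 0 (13 unadjusted) in cytarabine against cisplatin and cytochalasin D, and 1 and 2 in cisplatin against paclitaxel and cytochalasin D. With p adjusted over all pairs together, 6 passed in 5-FU against cytarabine and 4 each in cytarabine against paclitaxel, cytarabine against cytochalasin D and cisplatin against paclitaxel.

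At a minimum absolute log2 ratio of 1, 0 passed in 5-FU (10 unadjusted), 4 in cytarabine, 2 in cisplatin, 3 in paclitaxel, 2 in cytochalasin D, 5, 1, 2 and 3 in 5-FU against the other 4 drugs in that order, 2 and 0 (15 unadjusted) in cytarabine against cisplatin and cytochalasin D, and 1 each in cisplatin against paclitaxel and cytochalasin D.

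Leaving out 1 replicate gave 5 to 8 enzymes in 5-FU, 7 to 11 in cytarabine, 3 to 7 in cisplatin, 3 to 7 in paclitaxel and 3 to 8 in cytochalasin D; 6 to 10, 1 to 5, 2 to 9 and 3 to 10 in 5-FU against cytarabine, cisplatin, paclitaxel and cytochalasin D; 4 to 13, 0 to 0 and 0 to 1 in cytarabine against cisplatin, paclitaxel and cytochalasin D; 0 to 2 and 1 to 5 in cisplatin against paclitaxel and cytochalasin D; and 0 to 0 in paclitaxel against cytochalasin D. These fits take the spread of a drug left with 1 replicate from the other drugs.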
